A study of Mus musculus with 24 samples.

Results

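The genes described here are Trp53, which encodes the transcription factor p53, and 9 genes known as its targets or partners: Mdm2, Cdkn1a, Ccng1, Trp53inp1, Bax, Zmat3, Phlda3, Bbc3 and Aen. They were chosen by name, as the rows of the count table whose Ensembl identifiers GENCODE M21 assigns to these symbols, which gave 10 of 48985 rows. The choice was made with earlier results of these data known. All 10 passed the filter on low counts. The study made chromosomal recombinations in F121/9 cells, a female mouse embryonic stem cell line from a CAST/EiJ by 129/Sv cross, and asked how expression changed. Cells of all groups grew without serum in 2i medium, which holds inhibitors of MEK and GSK-3β, with LIF on gelatin. Of 24 libraries, 10 came from parental lines of the recombinations named d3, d6, i7, i12 and i10, whose genotype is labelled control. The other 14 came from 7 recombined lines, which are d3 clones 12 and 21, i7 clones 7 and 12, and 1 clone each of d6 (clone 16), i10 (clone 18) and i12 (clone 10). Each recombined group is 1 clone, each group has 2 replicates that the labels call biological, and the labels do not say how the parental lines differ from each other.

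In background terms, p53 is held at a low level by Mdm2, a ubiquitin ligase that marks it for degradation and is itself a p53 target, so that the pair form a feedback loop. DNA damage and other stresses release p53, which then binds response elements near its target genes and raises their transcription. Targets stop the cell cycle (Cdkn1a, which encodes the inhibitor p21), feed back on p53 (Mdm2, Ccng1), promote cell death (Bax, Bbc3, Aen) or restrain growth signals (Phlda3). Trp53inp1 is linked to autophagy and cell death, and Zmat3 encodes an RNA-binding protein. Mouse embryonic stem cells contain abundant p53. The RNA level of Trp53 says little about its activity, which is set mainly on the protein, so RNA of the targets is the usual readout.

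On GRCm38, with the GENCODE M21 annotation, Trp53 lies at chr11:69580359-69591873 and Ccng1 on the other strand at chr11:40748552-40755311. Mdm2 lies at chr10:117688875-117710758, Cdkn1a at chr17:29090976-29100727, Trp53inp1 at chr4:11156431-11174379, Zmat3 at chr3:32334792-32366014 and Phlda3 at chr1:135766119-135769136. Bax, Bbc3 and Aen share a chromosome, at chr7:45461697-45466898, chr7:16308393-16318205 and chr7:78895854-78911209.

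The p53 response element is a tandem pair of decamers, each with a C and a G at fixed places in its core. Promoters of RefSeq genes on GRCm38.p6, from 250 bases before to 50 after the start site, were searched for the p53 response element consensus without a spacer, with the core C and G of both decamers kept and at most 3 mismatches over 20 bases. The consensus reads the same on both strands, so 1 scan covered both. The 8 members in the table had 12 promoters, and 6 of these, of 5 genes, held a match, against 453 of all 32851 promoters (1.38%). Trp53inp1 and Zmat3 had no entry. The matches are shown because 4 of the 5 genes are targets whose RNA is followed below, with the core C and G of each decamer in capitals.
Cdkn1a: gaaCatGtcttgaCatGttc
Ccng1: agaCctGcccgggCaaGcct
Bbc3: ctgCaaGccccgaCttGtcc
Aen: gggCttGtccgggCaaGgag
Trp53: ggaCttGcccttaCttGtta
The Cdkn1a match, at chr17:29090928-29090947 on the plus strand, lay at -51 to -32 from the start site and had 1 mismatch. The Ccng1 match, at chr11:40755462-40755481 on the minus strand, lay at -195 to -176 and also had 1 mismatch. At this level 22 of all promoters (0.067%) held a match. The matches of Bbc3 (chr7:16309486-16309505, -97 to -78), Aen (chr7:78895937-78895956, -121 to -102 from 1 of its start sites and 10 to 29 from another) and Trp53 (chr11:69580284-69580303, -75 to -56) had 3 mismatches each, all on the plus strand. The Aen site was counted once for each of these start sites, so the 6 promoters hold 5 different sites. Positions refer to RefSeq start sites, which need not be the gene starts given above. The Bbc3 match, for example, lies inside the gene span. A match describes letters only, and binding was not measured.

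Total counts ran from 3286819 to 15581094 per library, and mitochondrial genes took 2.85% to 8.61% of them. Of 9 embryonic stem cell markers, 8 were matched and all 8 were detected in every library, with a summed level of 6046 to 8540 CPM, the depth-scaled count relative to the effective library size. Pou5f1, a defining marker, ran from 511 to 1109 CPM. Markers of other cells were low: Dcn of feeder fibroblasts was at 0 in all 24 libraries, Mesp1, Neurog2 and Foxa2 at 0 in 22, and the summed levels reached at most 25.7 CPM for fibroblast, 12.2 for primitive endoderm, 94.7 for neuroectoderm and 61.0 for mesoderm markers. In bulk RNA, fewer cells of a type and less RNA per cell cannot be told apart.

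All 10 genes were expressed in all 24 libraries, and the lowest count was 39, for Bbc3. As RPKM, which scales CPM by exon length in kilobases, Cdkn1a had the highest median, 103 (range 78.0 to 239). Bax followed with 68.3, Aen with 54.0, Ccng1 with 52.4 and Trp53 with 29.9. Trp53inp1 had a median of 22.1 RPKM, Phlda3 13.1, Zmat3 8.82, Mdm2 5.56 and Bbc3 5.25. Across libraries the ranges of neighbours in this order overlapped in every case. The plot of CPM by library shows the highest values of several targets in replicate 2 of the i12 and i10 lines.

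**Figure D1:**
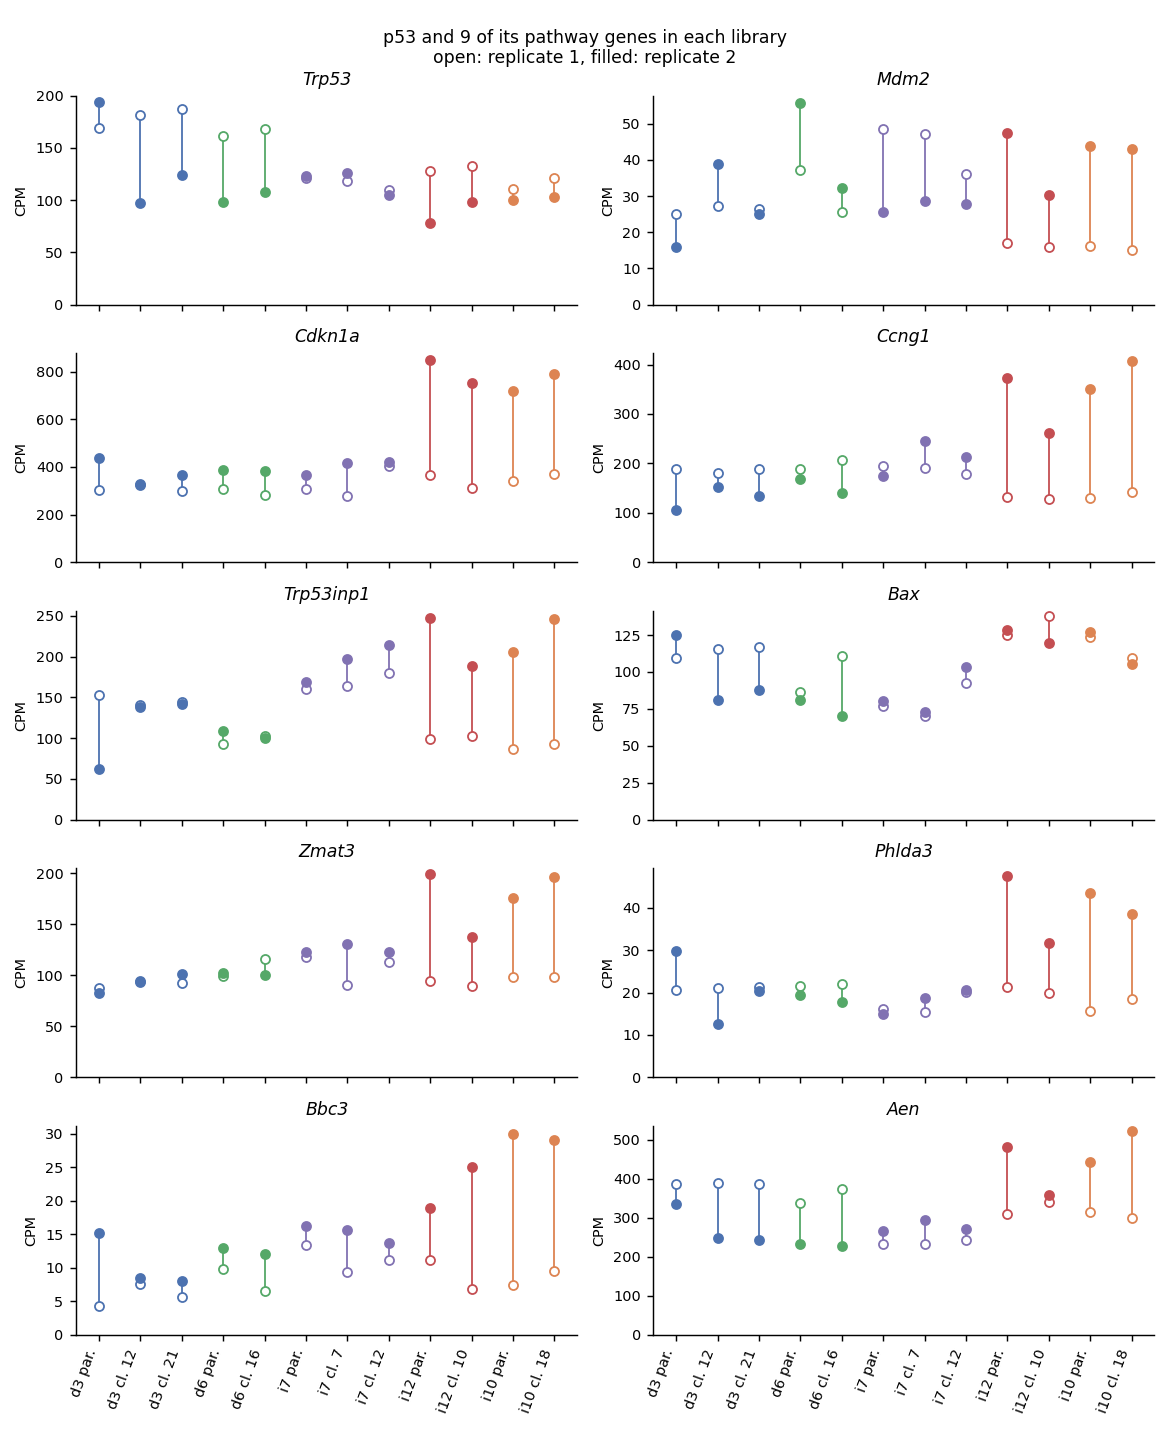
Level of each gene (y axis, CPM) in the 12 lines (x axis; par., parental; cl., clone), with replicate 1 as an open point, replicate 2 as a filled point and a line joining them. In i12 and i10, Cdkn1a lay at 310 to 369 CPM in replicate 1 and at 721 to 850 CPM in replicate 2, in parental lines and clones alike.

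Most of the targets were higher in replicate 2 of the i12 and i10 lines, with and without recombination. Replicate 2 was compared with replicate 1 within each recombination, in a fit with a coefficient per line and a replicate term per recombination. These 5 comparisons were added after the data had been seen. The labels do not say what libraries with the same replicate number share. Each recombination has 1 replicate 1 and 1 replicate 2, with its lines as the repeats. The SE and p of these and the later replicate tests therefore do not measure the spread between further replicates. In i12, 8 of 10 genes were called at an adjusted p under 0.05, 7 higher and 1 lower, where 19.4% of all 16253 genes were called and 10.5% were called higher. In i10, 8 of 10 were called, all higher, against 17.7% of all genes called and 9.57% called higher. The median log2 difference of the 10 genes was 1.00 in i12 and 1.18 in i10, against 0.01 and 0.00 over all genes. In the refits that follow, the calls over all genes were not counted, so their counts have no background share. Leaving out either library of a line removes that line from the comparison: 3 of 10 genes were called without the i12 parental line, 5 without i12 clone 10, 5 without the i10 parental line and 7 without i10 clone 18. Cdkn1a and Ccng1 were called in each of these.

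Cdkn1a stood at 364 and 310 CPM in replicate 1 of the i12 parental line and i12 clone 10, and at 850.2 and 754 CPM in replicate 2. In the i10 parental line and i10 clone 18 it stood at 342 and 369 CPM in replicate 1 and at 721 and 790.4 CPM in replicate 2. The 4 replicate 2 libraries lay above the other 20, where the highest value was 438 CPM. The difference was 2.38-fold in i12 (log2 1.25, SE 0.141, adjusted p 2.89e-05) and 2.13-fold in i10 (log2 1.09, SE 0.141, adjusted p 8.56e-05). In d3, Cdkn1a had 302, 328 and 299 CPM in replicate 1 (parental, clone 12, clone 21) and 438, 323 and 366 in replicate 2. In d6 the values were 307 and 283, then 385 and 382, and in i7 they were 308, 277 and 405, then 367, 415 and 422. The log2 differences of d3, d6 and i7, 0.27, 0.38 and 0.30, were above 0 but not called. This depended on the fit: the difference was called in d6 and i7 when only their own libraries were fitted (adjusted p 0.0223 and 0.0109) and in d3 and d6 from CAST counts alone (0.0228 and 0.0141). In d3 it was also called without clone 12 (0.41, adjusted p 0.0205 and 0.0203 for its 2 libraries). AC167363.2 overlaps Cdkn1a on the other strand, and with the strand setting of the counting unknown, Cdkn1a counts may hold reads of both.

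Mdm2 stood at 16.9 and 16.0 CPM in replicate 1 of the i12 parental line and clone 10, and at 47.4 and 30.4 in replicate 2. In i10 the parental line went from 16.2 to 43.8 CPM and clone 18 from 15.0 to 43.1. The differences were 2.30-fold in i12 (log2 1.20, SE 0.243, adjusted p 0.00262) and 2.78-fold in i10 (log2 1.48, SE 0.247, adjusted p 6.82e-04). Unlike Cdkn1a, Mdm2 reached this range elsewhere: the highest value was 55.8 CPM in replicate 2 of the d6 parental line, against 37.2 in its replicate 1. In i7 replicate 1 was the higher, with 48.6, 47.2 and 36.2 CPM in the parental line, clone 7 and clone 12, against 25.7, 28.6 and 27.96. That difference, -0.67 on the log2 scale (SE 0.170), was called lower in replicate 2 (adjusted p 0.0335). In d3 replicate 1 had 25.0, 27.4 and 26.5 CPM and replicate 2 had 15.9, 38.9 and 25.0, with no common direction.

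Ccng1 encodes cyclin G1, which recruits a phosphatase to Mdm2. In i12 it went from 131 and 128 CPM to 373 and 262, and in i10 from 130.1 and 141 to 351 and 408. All 4 replicate 2 values lay above the highest of the other 20 libraries, 245 CPM in replicate 2 of i7 clone 7. The log2 differences were 1.26 (SE 0.166, adjusted p 9.93e-05) and 1.48 (SE 0.166, adjusted p 2.68e-05). In d3 the difference went the other way, -0.52 (SE 0.131, adjusted p 0.00743), with 188, 181 and 188 CPM in replicate 1 and 105, 152 and 134 in replicate 2.

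Trp53inp1, a stress-induced gene linked to autophagy and cell death, went from 99.0 and 103 CPM to 247 and 189 in i12, and from 86.0 and 92.3 to 205 and 246 in i10. The log2 differences were 1.10 (SE 0.225, adjusted p 0.00280) and 1.33 (SE 0.227, adjusted p 7.83e-04). Replicate 2 of i7 clone 12, at 215 CPM, lay within the range of these 4 libraries. Zmat3 encodes an RNA-binding zinc-finger protein. It went from 93.8 and 89.1 CPM to 199 and 138 in i12, and from 98.1 and 98.6 to 176 and 197 in i10. Its log2 differences were 0.86 (SE 0.147, adjusted p 7.97e-04) and 0.92 (SE 0.147, adjusted p 4.71e-04), and the highest of the other 20 libraries had 131 CPM. Phlda3, an inhibitor of the kinase Akt, went from 21.4 and 19.95 CPM to 47.7 and 31.8 in i12, and from 15.6 and 18.4 to 43.5 and 38.5 in i10. The log2 differences were 0.91 (SE 0.242, adjusted p 0.0147) and 1.27 (SE 0.250, adjusted p 0.00235), and the other 20 libraries reached 29.8 CPM. Without any 1 of the i12 libraries the i12 value of Phlda3 was 0.67 to 1.12 and not called. Without either i10 parental library its i10 value was 1.04 or 1.05 and not called.

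The genes of the cell death arm differed in their calls. Bbc3, which encodes Puma, went from 11.2 and 6.84 CPM to 18.9 and 25.0 in i12 and from 7.44 and 9.43 to 29.9 and 29.0 in i10. Its log2 differences were the largest of the 10 genes, 1.34 (SE 0.342, adjusted p 0.0119) and 1.81 (SE 0.342, adjusted p 0.00171), and the highest of the other 20 libraries had 16.2 CPM. Without either library of i12 clone 10 the i12 value was 0.72 and not called (adjusted p 0.401), and without either i10 parental library the i10 value was 1.59 or 1.60 and not called (adjusted p 0.0909 and 0.0889). Bbc3 was also called higher in replicate 2 of d3 (log2 0.80, SE 0.260, adjusted p 0.0292; 0.33 and 0.31, not called, without the parental libraries), where the parental line went from 4.30 to 15.2 CPM and the clones from 7.61 to 8.44 and from 5.65 to 8.01. Aen, an exonuclease gene, went from 310.1 and 341 CPM to 483 and 358 in i12 (log2 0.35, adjusted p 0.112), and from 316 and 298 to 442 and 522 in i10 (log2 0.65, SE 0.149, adjusted p 0.00665). Without any 1 of the i10 libraries the i10 value of Aen was 0.47 to 0.79 and not called. Aen was lower in replicate 2 of d3 (-0.51, SE 0.12, adjusted p 0.00518) and of d6 (-0.62, SE 0.148, adjusted p 0.00811). Bax, whose product permeabilises the mitochondrial outer membrane, had log2 differences of -0.09 (95% interval -0.44 to 0.26) in i12 and -0.01 (-0.36 to 0.35) in i10. Bax values there were 125 and 138 CPM in replicate 1 and 128 and 119 in replicate 2 of i12, and 123 and 110 (109.5), then 127 and 106, in i10. Gm45808 overlaps Bax on the same strand, so its counts may hold reads of both.

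Trp53 itself was not called higher where its targets were. In i12 it went from 128 and 133 CPM to 78.3 and 97.9, a log2 difference of -0.57 (SE 0.188, adjusted p 0.0426), and was called lower, a call lost without any 1 of the 4 i12 libraries. In i10 it went from 111 and 121 CPM to 99.7 and 103, and its difference of -0.20 (95% interval -0.60 to 0.20) was not called. It was also lower in replicate 2 of d3 (-0.43, SE 0.147, adjusted p 0.0364) and of d6 (-0.68, SE 0.180, adjusted p 0.0153). In d3 the value was -0.20 without either clone 12 library (adjusted p 0.341 and 0.343) and the call was lost without either clone 21 library as well (adjusted p 0.170 and 0.163). Mdm2 and Cdkn1a were not called higher in d3 or d6 in the same fit, but in d6 both were when only its own libraries were fitted (0.47 and 0.39, adjusted p 0.0249 and 0.0223). In d6 the parental line went from 161 to 98.5 CPM and clone 16 from 169 to 108. In d3, clone 12 went from 181 to 97.2 CPM and clone 21 from 188 to 124, while the parental line went from 169 to 194. The i7 libraries held between 105 and 126 CPM, with a difference of 0.01.

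**Figure D2:**
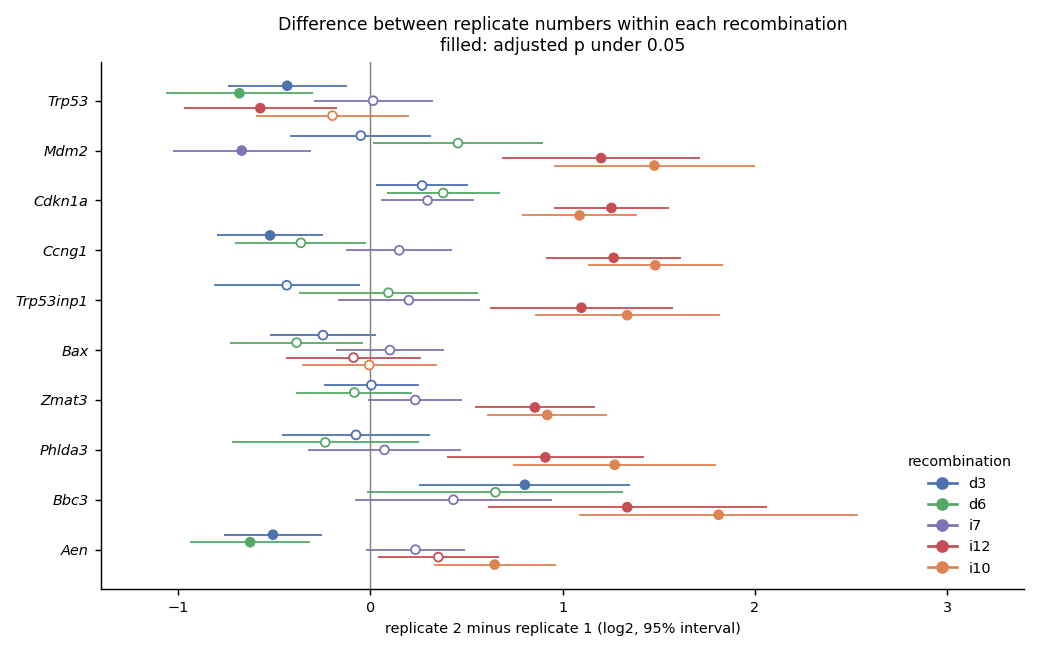
Replicate 2 minus replicate 1 of each gene (x axis, log2, with 95% intervals) within the 5 recombinations (colours), filled where the adjusted p was under 0.05. The i12 and i10 points of Mdm2, Cdkn1a, Ccng1, Trp53inp1, Zmat3, Phlda3 and Bbc3 lie between 0.86 and 1.81, those of Bax beside 0, and those of Trp53 at -0.57 and -0.20.

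In d3, 4 of 10 genes were called, where 28.6% of all genes were, in d6 2 of 10 against 19.6%, and in i7 1 of 10 against 4.31%. Tested jointly over the 5 recombinations, the replicate term was called for 9 of 10 genes, all but Bax (adjusted p 0.20), against 46.2% of all genes. A test of the difference of the 5 replicate terms, also added after the data had been seen, asks whether the shift was the same in every recombination. This difference was called for 7 of 10 genes, against 24.7% of all genes. Bbc3 (adjusted p 0.105), Trp53 (0.128) and Bax (0.319) were not called. The calls of d6 and i7 were lost without any 1 of their libraries. Those of d3 were lost when only its own libraries were fitted (0 of 10, against 1542 of all 15413 genes).

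The i12 and i10 differences of the called genes had the same direction in the counts of each allele, but not every call held. Cdkn1a differed by 1.15 in 129S1 counts and 1.34 in CAST counts in i12, and by 1.05 and 1.14 in i10, on the log2 scale. For Ccng1 the values were 1.12 and 1.41 in i12 and 1.50 and 1.48 in i10. From 129S1 counts alone 7 of the 10 genes were called in i12 and 6 in i10, against 2057 and 1880 of all 13919 genes. From CAST counts alone 6 and 8 were called, against 2068 and 1842 of 13951. Mdm2 was not called from 129S1 counts in i12 or i10 (adjusted p 0.0784 and 0.164), nor Aen in i10 (0.0680). Trp53 and Bbc3 were not called from CAST counts in i12 (0.0790 and 0.0716).

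Other measures moved with replicate 2 of i12 and i10. Their totals were 3286819 to 5074854 counts, against 4032054 to 6920899 in replicate 1. The mitochondrial share was 4.42% to 5.91% against 2.85% to 3.84%. Summed embryonic stem cell markers were 6046 to 6430 CPM against 6569 to 6966, and all 8 matched markers were detected. Zfp42, a marker of the naive state, fell in both (log2 -1.04 in i12, adjusted p 5.86e-05, and -1.05 in i10, adjusted p 5.32e-05). Nanog fell in i12 (-0.40, adjusted p 0.0173) and Sox2 rose in i10 (0.46, adjusted p 0.0249). Tfcp2l1, the most abundant marker, differed by 0.34 and 0.23 (adjusted p 0.174 and 0.386). Summed neuroectoderm markers were 16.4 to 25.7 CPM against 74.9 to 94.7, and Tubb3, the neuronal tubulin that makes up most of this sum, fell by 2.20 and 2.57 (adjusted p 1.65e-05 and 7.59e-06). Sox1 of the same list went the other way, with 1.65 to 5.73 CPM against 1.19 to 1.89 (log2 0.94 in i12, adjusted p 0.261, and 1.57 in i10, adjusted p 0.0512). Neurog2 was at 0 in 22 of all 24 libraries and Pax6 in 11. Summed mesoderm markers were 4.53 to 20.8 CPM against 10.6 to 31.2, fibroblast markers 3.93 to 11.6 against 10.3 to 14.5, and primitive endoderm markers 5.90 to 10.7 against 2.90 to 10.2. Of the most abundant genes of these lists, T of mesoderm differed by -0.62 in i12 and -1.07 in i10 (adjusted p 0.0960 and 0.0529), Thy1 of fibroblasts fell in i10 (-1.30, 0.00343), and Dab2 of primitive endoderm fell in i12 (-1.76, 0.0105). Gata4, also of primitive endoderm, rose in both (1.38 in i12, adjusted p 0.0409, and 1.97 in i10, adjusted p 0.00627). Its level was low, 0.87 to 3.33 CPM in replicate 1 and 3.07 to 7.40 in replicate 2 of these lines. Nanog, Sox2, Sox1 and Gata4 were named after their values were seen. Eomes, also a mesoderm gene, fell in i12 (-1.68, 0.0357). Eomes and Dab2 were low as well. In i12 and i10, Eomes had 1.93 to 7.44 CPM in replicate 1 and 0.91 to 2.12 in replicate 2. Dab2 had 1.21 to 6.84 CPM and 0.20 to 3.02. The part of these measures in the p53 target values was not tested.

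The wider pathway was followed in 4 lists of known p53 regulators and targets. The lists were chosen with earlier results of these data known, so they are not an independent check. In i12, 21 of 31 tested repair and metabolism targets rose and 2 fell (median log2 0.69), 7 of 14 apoptosis targets rose and none fell (0.71), and 5 of 14 cell cycle targets rose and 1 fell (0.55). In i10 the counts were 19 of 31 higher and 1 lower (0.95), 7 of 14 higher and 1 lower (0.66), and 5 of 14 higher and 1 lower (0.39). Of the regulators of p53, 1 of 21 rose and 5 fell in i12 (median -0.09), and 2 rose and 1 fell in i10 (0.05). The shares of all genes called are those given above for the same comparisons. In d3, 8 of 31 repair and metabolism targets rose and 4 fell (median 0.18), 3 of 14 apoptosis targets rose and 6 fell (-0.23), 3 of 14 cell cycle targets rose and 3 fell (0.13), and 1 of 21 regulators rose and 3 fell (-0.09). In d6 the counts were 7 higher and 3 lower (0.23), 2 and 3 (-0.15), 3 and 1 (0.12), and 1 and 4 (-0.14) in the same order. In i7 none of the 80 pathway genes tested was called by edgeR (8, 3, 3 and 5 in the repair, apoptosis, regulator and cell cycle lists had an unadjusted p under 0.05).

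Among apoptosis targets, Pmaip1, which encodes the BH3-only protein Noxa, rose by 2.20 in i12 (SE 0.231, adjusted p 1.68e-05) and by 2.45 in i10 (SE 0.234, adjusted p 7.59e-06). It stood at 16.2 to 16.4 CPM in replicate 1 of these lines and at 58.7 to 107 in replicate 2. Tnfrsf10b, a death receptor, rose by 1.56 and 1.74 (adjusted p 9.93e-05 and 5.83e-05), and Dapk1, a kinase, by 0.73 and 0.57 (0.00233 and 0.0112). In d3 Pmaip1 fell (-0.69, adjusted p 0.00592), Dapk1 fell in d3 and d6 (-1.04 and -0.51, 8.21e-06 and 0.0152), and Tnfrsf10b rose in d6 (0.74, 0.0156). Bid, the most abundant of the list, differed by -0.30 in i12 (adjusted p 0.0835) and fell by 0.47 in i10 (0.0100).

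Among cell cycle targets, Btg2, an antiproliferative gene, rose by 1.36 and 1.68 (adjusted p 2.82e-04 and 7.19e-05), with 20.1 to 25.8 CPM in replicate 1 and 57.1 to 79.0 in replicate 2. Plk2, a polo-like kinase, rose by 1.89 and 2.75 (0.00161 and 1.48e-04), and Ckap2 by 0.86 and 1.08 (4.78e-04 and 8.36e-05). Plk2 fell in d3 (-1.24, adjusted p 0.00217). Ccnb1, cyclin B1, which p53 is known to repress and the most abundant of the list, fell by 0.46 in i12 (adjusted p 0.00573) and differed by -0.31 in i10 (0.0513). In i10 the 1 gene called lower was Trp53cor1, named after its values were seen (log2 -1.50, adjusted p 0.0307). Its level was low, 3.05 to 4.05 CPM in replicate 1 and 0.60 to 3.54 in replicate 2 of i12 and i10.

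Among repair and metabolism targets, Ephx1, an epoxide hydrolase, rose by 2.28 and 2.35 (adjusted p 1.65e-05 and 7.59e-06), and Trp53i11 by 1.71 and 1.57 (3.29e-06 and 5.84e-06). The nucleotide excision repair nuclease Ercc5 rose by 1.29 and 1.46 (1.91e-04 and 7.19e-05), the receptor Eda2r by 1.36 and 1.87 (3.91e-04 and 4.05e-05), and Abhd4 by 1.27 and 1.38 (2.14e-05 and 1.16e-05). The secreted stress protein Gdf15 rose by 1.58 and 1.03 (1.66e-04 and 0.00443), and Ddit4l by 1.61 and 2.22 (0.00132 and 1.29e-04). Gdf15 rose in d3 and d6 too (1.97 and 1.59, adjusted p 6.64e-07 and 2.13e-04), while Ddit4l fell there (-1.13 and -1.42, 0.00185 and 0.00330) and Eda2r fell in d3 (-0.85, 0.00128). In d6 Ephx1 (0.67, 0.0409) and Trp53i11 (0.66, 0.00349) rose. Ddit4, an inhibitor of mTOR signalling, rose in i12 (log2 2.00, adjusted p 2.11e-05) and differed by 0.53 in i10 (0.100), and its rise was 3.15 in d3 (9.68e-09) and 2.72 in d6 (1.92e-06). Pltp and Cyfip2 rose in i12 (0.58 and 0.62, adjusted p 0.0301 and 0.0160) and differed by 0.38 and 0.48 in i10 (0.147 and 0.0621). Both also rose in d3 (1.00 and 0.97, 1.29e-04 and 5.31e-05) and d6 (1.32 and 0.86, 1.36e-04 and 0.00116). Rps27l, which had the highest mean log2 level of the list, differed by 0.11 and 0.22 (0.679 and 0.378). Tigar, which lowers glycolytic flux, fell in both (-0.45 and -0.58, adjusted p 0.0384 and 0.0112), and Pml in i12 (-0.37, adjusted p 0.0387). Tigar and Pml were named after their values were seen.

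Among regulators, Trim28, a partner of Mdm2 and the most abundant of the list, fell by 0.95 in i12 (adjusted p 8.90e-05) and by 0.50 in i10 (0.00873). The following were named after their values were seen. Mdm4, the Mdm2 relative that inhibits p53, rose by 0.94 and 1.03 (adjusted p 0.00119 and 6.06e-04) and by 0.55 in d6 (0.0309), and the ligase Rchy1 rose in i10 (0.58, 0.0215). In i12 the coactivators Crebbp (-1.10, 0.0448) and Ep300 (-0.61, 0.0431), the deacetylase Sirt1 (-0.89, 0.0418) and the phosphatase Ppm1d (-0.76, 0.0397) fell as well. The kinases Atm and Atr, at the head of the DNA damage response, were not called in i12 or i10.

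**Figure D3:**
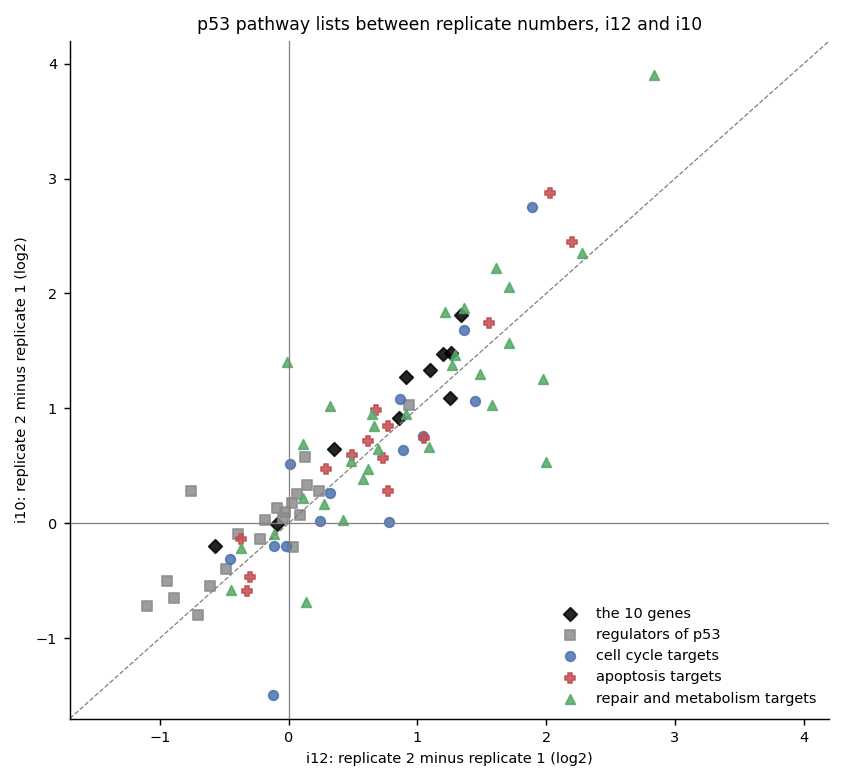
Replicate 2 minus replicate 1 in i12 (x axis, log2) and in i10 (y axis, log2) for the 10 genes and the tested genes of 4 pathway lists, with the line of equal values dashed. Pmaip1 (2.20, 2.45) and Ephx1 (2.28, 2.35) lie far to the upper right, while the median of the regulators of p53 is -0.09 on the x axis and 0.05 on the y axis.

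The levels were also compared across all 24 libraries, as a description, since the points share lines and replicate numbers. The genes most like Cdkn1a by Pearson's r of log2 CPM were Slc25a28 (0.96), Btg2 (0.95) and Carhsp1 (0.94). Over the 20 libraries without replicate 2 of i12 and i10 these values were 0.88, 0.71 and 0.73. The genes most like Mdm2 were Ptp4a1, whose 2 identifiers had nearly equal counts and r of 0.90 and 0.89, and Vps37a (0.87), and without the same 4 libraries their r was 0.92, 0.92 and 0.88. The genes most like Trp53 were A930004D18Rik (0.92), Utp23 (0.90) and Coa7 (0.90), with 0.89, 0.91 and 0.87 without them. Among the members, Ccng1 and Zmat3 had r of 0.90 over 24 libraries and 0.64 over 20, and Cdkn1a and Zmat3 0.84 and 0.29. Cdkn1a and Mdm2 had 0.29 and -0.20, and Trp53 had negative values with Cdkn1a (-0.59 and -0.31) and Mdm2 (-0.47 and -0.34).

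No member was called changed by recombination, in the test of each clone against the parental line of the same name. By edgeR 0 of 10 genes were called in each of the 7 comparisons, and 0 had an unadjusted p under 0.05. Of all genes, 0.0123% were called in d3 clone 12, 0.0554% in d3 clone 21 and 0.0246% in i7 clone 12. The share was 0.0123% in the d6 clone, and 0% in i7 clone 7 and in the clones of i10 and i12. DESeq2 called 0 of 10 in each as well. The differences farthest from 0 were those of Mdm2, 0.69 in d3 clone 12 (95% interval -0.44 to 1.82) and -0.69 in d6 clone 16 (-1.81 to 0.44), on the log2 scale. Cdkn1a was nearest to 0 in i7 clone 7 (0.04, interval -0.91 to 0.98) and farthest in i7 clone 12 (0.29, -0.65 to 1.24). The medians of the 10 genes ran from -0.22 in i12 clone 10 to 0.10 in i10 clone 18, and those of all genes from -0.01 to 0.01. Leaving out any 1 library of a comparison gave 0 of 10 as well. Differences within these intervals were not detectable in this fit, which has no replicate term.

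A term for the replicate number (the replicate block) removed the shifts described above. With it, none of the 10 genes was called in a clone either. Unadjusted, 3 of the 10 had a p under 0.05 in d3 clone 12. In d3 clone 21, d6 clone 16 and i7 clone 12 it was 1 each, and 0 in the other 3 clones. Of all 16253 genes, the block fit called 1019 in i7 clone 12, 20 in d3 clone 21 and 14 in d6 clone 16. It called 2 in d3 clone 12 and 0 elsewhere. An unadjusted p under 0.05 was found for 2618 of all genes in d3 clone 12 and 2048 in d3 clone 21. The count was 836 in d6 clone 16, 3268 in i7 clone 12 and 296 to 959 in the other 3. The intervals of the block fit were narrower. Mdm2 in d3 clone 12 had 0.69 (95% interval 0.23 to 1.14, adjusted p 0.249). In d6 clone 16 it had -0.67 (-1.11 to -0.22, adjusted p 0.508). In the fit without the block, 0 of 10 genes were called between d3 clones 21 and 12 (0 unadjusted), against 0.0492% of all genes. Between i7 clones 12 and 7, 0 of 10 were called, against 0.0923%, and 1 had an unadjusted p under 0.05: Bax, with 92.4 and 104 CPM in clone 12 and 69.9 and 73.1 in clone 7 (log2 0.45, 95% interval 0.02 to 0.89, adjusted p 0.579). DESeq2 called 0 of 10 in both. The mean effect of recombination, in which each recombination had equal weight, called 0 of 10 (0 unadjusted, 0 by DESeq2), against 0.0123%. Its values ran from -0.16 for Bbc3 (interval -0.77 to 0.45) to 0.11 for Trp53inp1 (-0.32 to 0.55), with -0.03 for Cdkn1a (-0.43 to 0.37) and -0.01 for Trp53 (-0.29 to 0.27). The 5 effects did not differ for any of the 10 genes in the joint test (0 called, 0 unadjusted, 0 by DESeq2), against 0.0123% of all genes.

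**Figure D4:**
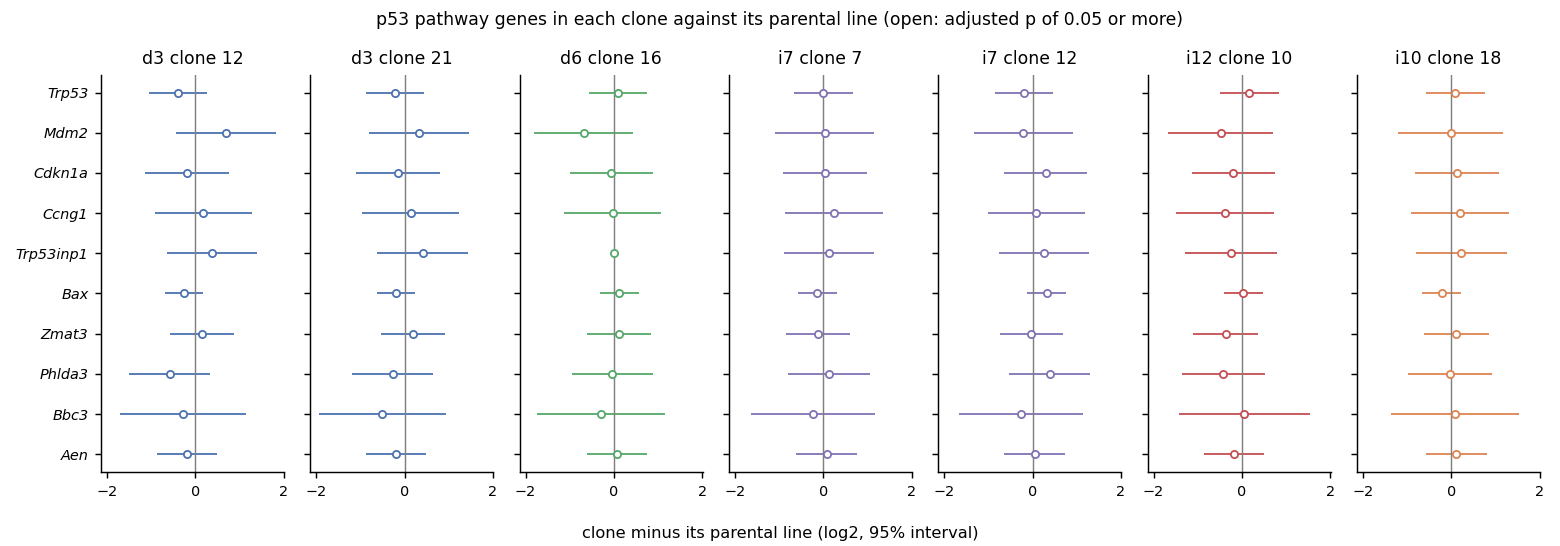
Clone minus parental line (x axis, log2, with 95% intervals) for the 10 genes in 7 clones. All points are open (adjusted p of 0.05 or more), and the extremes are Mdm2 at 0.69 in d3 clone 12 and -0.69 in d6 clone 16. No interval could be computed for Trp53inp1 in d6 clone 16, whose change was 0.00.

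Whether the parental lines were called different depended on the fit. The joint test of the 5 parental lines called 0 of 10 genes, against 6.64% of all genes. Of the 10, 1 had an unadjusted p under 0.05 (Bax, adjusted p 0.0759). DESeq2 called 1 of 10, against 2514 of all 16253 genes. With no filter on low counts edgeR called 5 of 10, against 3630 of 30383 genes. With the replicate block the joint test called 9 of 10, all but Bbc3 (adjusted p 0.176), against 50.0% of all genes. The block takes the replicate shift of each recombination out of the spread, while each parental mean still averages over that shift. The p-values of this fit therefore do not weigh differences between lines against the shift between replicates. By mean level, Bax was lowest in the i7 parental line (78.6 ± 2.8 CPM, SD, n = 2) and d6 (83.6 ± 4.0), and higher in d3 (117 ± 11), i10 (125 ± 2.5) and i12 (126 ± 2.5). Cdkn1a was lowest in i7 (338 ± 42), d6 (346 ± 55) and d3 (370.2 ± 96), whose values overlapped, and highest in i10 (532 ± 268) and i12 (607 ± 344). Trp53 was highest in d3 (182 ± 18) and lowest in i12 (103 ± 35) and i10 (105 ± 8.0). Of the 80 pathway genes tested, 6 were called without the block: Gadd45a, Rps27l, Cdkn2a, Sfn, Hipk2 and Siva1, of which all but Rps27l were named after their values were seen.

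The counts of each library are split between the alleles, and in the parental lines 9 of 10 genes had unequal alleles, against 69.2% of 10795 genes tested. Aen was the extreme: the 129S1 allele gave 3.03% to 5.97% of its counts over the 24 libraries, for example 232 of 4671 in replicate 1 of the d3 parental line (95% Wilson interval 4.4% to 5.6%), and 129S1 was lower by 4.37 on the log2 scale (SE 0.0766, adjusted p 5.66e-21). Mdm2 was lower from 129S1 by 1.50 (SE 0.192, adjusted p 6.47e-07). Smaller deficits of 129S1 were called for Trp53 (-0.36), Trp53inp1 (-0.29), Bax (-0.23) and Cdkn1a (-0.16). The 129S1 allele was higher for Phlda3 (0.84, share 57.3% to 71.6%), Zmat3 (0.71, 56.9% to 69.3%) and Bbc3 (0.50, 47.2% to 69.7%). Ccng1 was balanced within error (0.02, SE 0.0391, adjusted p 0.711, share 46.8% to 54.2%). Counting of reads without an allele-specific base is not described in the sources used here, and its part in these shares was not tested.

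The allelic share of Mdm2 varied between libraries of 1 line. In the d3 parental line, 129S1 gave 17.2% of its counts in replicate 1 (Wilson bounds at 95%: 13.3% and 21.8%) and 32.9% (26.0% to 40.6%) in replicate 2, and 39.2% (34.4% to 44.3%) and 23.0% (18.6% to 28.2%) in replicates 1 and 2 of the i7 parental line. In d6 clone 16 it was 17.3% (13.7% to 21.7%) and 38.3% (32.9% to 44.1%), and in i7 clone 7 it was 41.5% (36.7% to 46.4%) and 21.5% (17.8% to 25.8%). The intervals of the replicates did not overlap in these lines, nor in d3 clone 12, i7 clone 12 and i10 clone 18, and which replicate had the higher share differed between lines. From the 129S1 allele Mdm2 ran from 3.05 to 22.5 CPM and from CAST from 10.2 to 37.0 CPM. In i7 parental replicates 1 and 2, 129S1 gave 145 and 67 counts and CAST 225 and 224. In the i12 and i10 parental lines, where Mdm2 was higher in replicate 2, the shares were 19.7% and 22.0%, and 18.8% and 19.3%, with overlapping intervals.

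**Figure D5:**
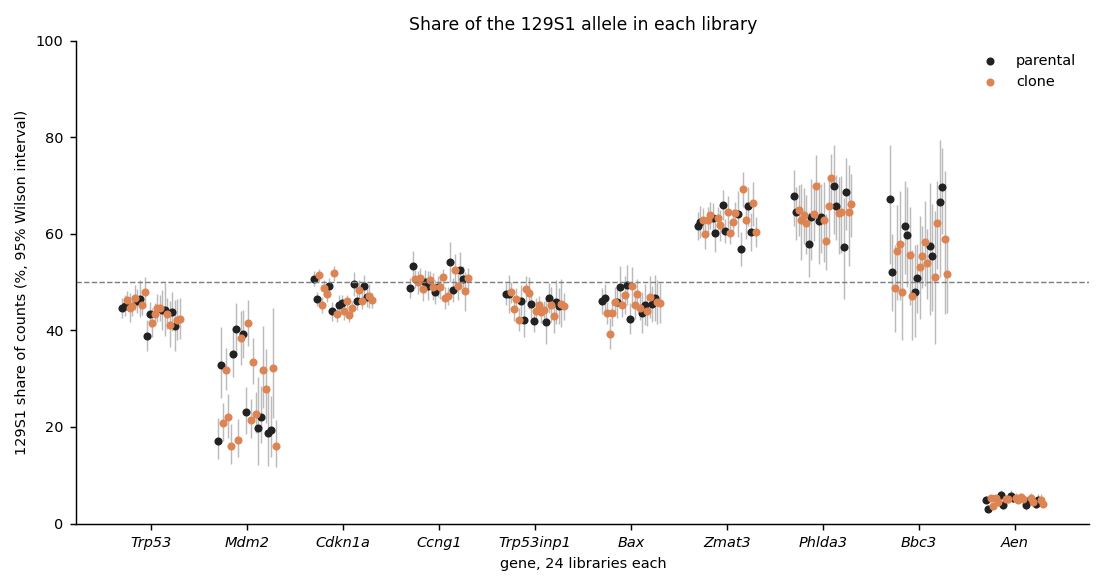
Share of counts from the 129S1 allele (y axis, percent, with 95% Wilson intervals) for each gene (x axis) in 24 libraries, parental lines in black and clones in orange, with 50% dashed. Aen lies between 3.03% and 5.97%, Mdm2 is spread from 16.0% to 41.5%, and Ccng1 lies about the dashed line.

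The allelic ratio of each clone was compared with that of its parental line, and 0 of 10 genes were called in each of the 7 clones. Of all genes, 3.41% were called in d3 clone 21 and 2.33% in i7 clone 12. The share was 0.0463% in d3 clone 12 and in the d6 clone, 0.00926% in i7 clone 7 and in the i12 clone, and 0% in the i10 clone. Unadjusted, 2 ratios had a p under 0.05: Bax in d3 clone 12 (log2 -0.28, 95% interval -0.56 to -0.01) and Bbc3 in i10 clone 18 (-0.92, -1.65 to -0.19). The ratio was fitted with edgeR alone. Among the wider pathway lists 3 ratios were called. In d3 clone 21, the 129S1 allele of Abhd4 gave 1 and 0 counts and CAST gave 714 and 674, against 187 and 172 from 129S1 and 317 and 334 from CAST in the parental line. In the same clone, Tnfrsf10b gave 0 and 0 counts from 129S1 (3 counts were taken as the limit of detection) and 153 and 201 from CAST. The sum of both alleles was 58.6 and 57.4 CPM for Abhd4, against 41.7 and 52.1 in the parental line. Both genes lie on chromosome 14. Kat5, on chromosome 19 and named after its values were seen, gave 99 and 152 counts from 129S1 and 269 and 341 from CAST in i7 clone 12 (log2 ratio change -1.21, SE 0.194, adjusted p 5.90e-04).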

How the data were processed

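The deposited values are raw counts per gene, in 1 column for the 129S1 and 1 for the CAST allele of each library, from poly(A) RNA. The submitters' processing notes name STAR, SAMtools and mm10. The counting tool, its strand setting and the handling of reads without an allele-specific base are not given in the sources used here. Both columns were summed for totals. Of 48985 identifiers, 48301 were identical to GENCODE M21, 48838 matched without their version, and the 147 unmatched held 0.0148% of counts.

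Differences were tested with edgeR 4.0.16 in R 4.3.3 (quasi-likelihood, TMM scaling, default expression filter, 1 coefficient per line) over 16253 genes, with Benjamini-Hochberg adjustment and a threshold of 0.05. The allelic fit used 10795 genes that averaged 10 or more counts on each allele. DESeq2 1.42.0, other filters, the replicate block, each allele alone and leaving out each library were alternatives. Scripts were tested on simulated data. Wilson intervals cover counting error only. Python 3.11.15 was used for summaries.

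Same-numbered libraries of 1 recombination deviated together (r 0.358 to 0.688 over 9 pairs of groups), against -0.205 to 0.603 (median 0.205, and 0.549 for the 9) over 57 pairs from different recombinations. The numbers were therefore taken to pair the libraries within a recombination.

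Beside the 10 genes, genes of 4 p53 pathway lists and 5 marker lists are named if among the 20 with the smallest adjusted p or of the highest mean log2 level in their list. Of 122 listed symbols, 121 were in the table. The genes and lists were chosen with earlier results of these data known.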

Additional observations from a re-analysis of the deposited data

Results flagged for a closer look

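For 7 of the 10 genes, against 24.7% of all genes, the shift from replicate 1 to replicate 2 differed between the recombinations. The test of that difference (edgeR, adjusted over all genes) was added after the data had been seen. The distance between the highest and the lowest shift, on the log2 scale, was 2.15 for Mdm2 (1.48 in i10 and -0.67 in i7, adjusted p 3.54e-04). It was 2.00 for Ccng1 (1.48 in i10 and -0.52 in d3, adjusted p 1.74e-05). For Trp53inp1 it was 1.77 (1.33 in i10 and -0.43 in d3, adjusted p 0.00150), where d3 had -1.29 in the parental line and -0.03 in both clones. Phlda3 had 1.50 (1.27 in i10 and -0.23 in d6, adjusted p 0.00808) and Aen 1.27 (0.65 in i10 and -0.62 in d6, adjusted p 6.32e-04). Zmat3 had 1.00 (0.92 in i10 and -0.08 in d6, adjusted p 0.00228). Cdkn1a, whose difference was above 0 in all 5 recombinations and called in i12 and i10, had 0.98 (1.25 in i12 and 0.27 in d3, adjusted p 0.00142).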

How the results depend on the processing

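The counts of 0 of 10 genes in the 7 clone comparisons, between clones, in the mean effect and in the difference between recombinations held under DESeq2, its size factors, both filters, the replicate block and every left-out library. The count for the parental lines was 0 of 10, and became 9 with the replicate block, 5 with no filter on low counts and 1 with DESeq2. For parental lines the block leaves the replicate shift out of the spread. Of all 16253 genes, 1079 were called at first, 8124 with the block and 2514 with DESeq2, and 3630 of 30383 with no filter. The replicate block changed no other count of the 10 genes. For replicate 2 against replicate 1, fitting only the libraries of the recombination gave 0 in d3 (from 4), 5 in d6 (from 2) and 5 in i7 (from 1). Of all genes, these fits called 1542 of 15413 in d3, 3755 of 14473 in d6 and 2713 of 15104 in i7. CAST counts alone gave 0 in i7, against 492 of all 13951 genes. The calls over all genes were not counted in the refits with a library left out, so the next counts have no background share. Without 1 library at a time, i12 counted 3 to 5 and i10 counted 5 to 7 (from 8 each), d3 counted 4 to 5, and both d6 and i7 counted 0 to 0. In i12 and i10 the lower values came without either library of the parental line. The joint replicate test gave 9 to 10, the difference of the shifts 6 to 10, and the allelic test 9 to 9. No value reversed. The causes were not tested. Libraries of i12 and i10 were among the shallowest, and Bbc3, with as few as 39 counts, had the widest intervals in the clone comparisons of total counts.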

Other observations

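Among the pathway genes of the lists, unequal alleles in the parental lines were largest in Rpl11, where 129S1 was lower by 1.97 on the log2 scale (SE 0.0725, adjusted p 1.19e-15), and in Siva1, where 129S1 was higher by 1.81 (SE 0.0656, adjusted p 9.59e-16). Rpl11 encodes a ribosomal protein that binds Mdm2, and Siva1 a p53 target linked to apoptosis. Pmaip1 was lower from 129S1 by 1.75 (SE 0.0890, adjusted p 2.93e-13) and Plk2 higher by 1.31 (SE 0.126, adjusted p 9.86e-09). Rpl11 and Siva1 were named after their values were seen.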
